A study of Mus musculus with 36 samples.

Results

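A small set of probe sets varied alike between the same mice in liver, in white adipose tissue (WAT) and in brown adipose tissue (BAT). They were chosen from the deposited scores: a probe set was taken when its Pearson correlations over the 12 mice were above 0.9 for liver with WAT, for liver with BAT and for WAT with BAT. Of 45037 probe sets, after 64 manufacturer's controls had been set aside, 53 met this rule (0.118%). By the platform annotation 42 of the 53 carried 1 gene symbol, for 35 genes in all, 3 carried several symbols and 8 carried none. The 36 arrays came from male mice of ddY, an outbred stock whose animals are not genetically identical, which were 5 weeks old at arrival and acclimated for 1 week. In the CAAM group, 5 mice (numbers 2, 4, 5, 6 and 7) were administered a mixture of amino acids modelled on casein at 1.8% by feeding tube, and in the water group 7 mice (numbers 1 to 7) were administered water. Both groups received 37.5 µL per gram of body weight once a day for 5 doses and tissues were taken 4 h after the last one. Each mouse gave 1 array of each tissue, and 2 further CAAM mice had been left out by the authors because of liver morphology.

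Values are scores of the distribution free weighted (DFW) method, 1 per probe set and array, a method that gives each probe set its own weight for differences between arrays. A difference between mice was therefore read within a probe set and was not turned into a fold change. For a value of the whole mouse, each probe set's scores were centred and divided by their SD over the 12 arrays of a tissue, and the 3 tissues were averaged. This is called the mouse mean below and is given in SD units. Tissue homogenates were measured, in which fewer cells of a type and less RNA per cell cannot be told apart.

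The members did not come from a single pathway. Several encode parts of the mitochondrial respiratory chain, which passes electrons from NADH (complex I) and succinate (complex II) through ubiquinone to complex III and is densest in the mitochondria of brown adipocytes. Others belong to the detoxification of reactive aldehydes, to lysosomes and the Golgi, to the spindle and to innate and MHC class I defence, all of which liver and both kinds of fat use.

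The tissues carried their own markers, with Alb at a mean of 15.0 on liver arrays and 6.98 or less elsewhere, Lep at 11.3 on WAT arrays and Ucp1 at 14.2 on BAT arrays. Epididymis markers stood apart on some WAT arrays: the mean score of the 3 measured was 6.53 to 9.21 in CAAM mice with a median of 6.603, and 8.41 to 17.8 in water mice with a median of 8.90. Skeletal muscle markers in BAT, 5 measured, scored 6.61 to 11.2 in CAAM mice (median 6.80) and 6.91 to 11.8 in water mice (median 7.47). The absolute correlation of the members' mouse means with these markers had a median of 0.182 for the epididymis set and 0.268 for the muscle set. Without the 2 mice highest in epididymis markers 47 of the 53 members stayed above 0.9 in all 3 correlations and 52 above 0.8, with the lowest at 0.774. The 4 mice highest in muscle markers were CAAM mouse 2 and water mice 1, 3 and 7. Without them 41 stayed above 0.9 and 48 above 0.8, and the lowest fell to -0.42. CAAM mouse 2 and water mouse 7 were also the 2 mice that stood above the rest for Glo1, a member described below. What part muscle content had in the fall was not tested.

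Across all probe sets such likeness between tissues was rare. The lowest of the 3 correlations had a median of -0.168 over all probe sets, all 3 were above 0 for 12652 (28.1%), above 0.5 for 1107 (2.46%) and above 0.8 for 163 (0.362%). Among the members the median correlation was 0.954 for liver with WAT, 0.952 for liver with BAT and 0.973 for WAT with BAT, against 0.0443, 0.125 and 0.125 over all probe sets. These correlations chose the members, and they are given as a description. Just inside the threshold lay 1436462_at (lowest correlation 0.905), 1440068_at (0.904), H2-D1 (0.904) and Vcp (0.902). Just outside lay Zfp386 (1421139_a_at, 0.899), Glo1 (1436070_at, 0.898), Ube2d-ps (1438285_at, 0.896) and Abhd1 (1418148_at, 0.893).

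The scores of the members varied far more between mice than those of most probe sets. As DFW gives each probe set its own weight, the SDs below also carry that weight and do not measure differences in RNA. Their SD over the 12 mice had a median of 0.00202 on liver arrays, 0.00885 on WAT arrays and 0.00540 on BAT arrays, against 1.08e-05, 1.42e-05 and 7.38e-06 over all probe sets. The SD lay in the highest 10% of all probe sets for 52 members in liver, 51 in WAT and 53 in BAT. The widest spread of a member fell in WAT for 28, in BAT for 13 and in liver for 12. Medians of whole arrays spanned 0.000345 in liver, 0.00596 in WAT and 0.00143 in BAT. Some members had a whole range narrower than that span, such as Haus2 (1430577_at) in WAT (0.00534) and in BAT (0.000819).

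The member whose scores spread most widely was Sdhd, which encodes a membrane anchor of succinate dehydrogenase, complex II of the respiratory chain. In BAT its score (1428235_at) was 6.67, 13.74, 12.76, 7.51 and 7.20 in CAAM mice 2, 4, 5, 6 and 7, and in water mice it was 7.57 in mouse 2 and 12.76 to 13.67 in the other 6. Thus 3 CAAM mice and 1 water mouse lay low and 8 mice lay high, with nothing between 7.57 and 12.76. The same 4 mice were low in liver, at 6.87 to 7.14 against 9.06 to 9.63 in the other 8, and in WAT, at 6.56 to 6.68 against 8.12 to 8.54. Among the 8 high mice, CAAM mouse 4 and water mouse 7 were the highest in every tissue, at 8.53 and 8.54 in WAT beside 8.17 or less in the rest. A second Sdhd probe set, 1437489_x_at, placed the same mice on the same sides, with 6.39 to 6.81 and 9.03 to 9.67 in BAT. Its mouse means correlated with those of the first at 0.99. The lowest correlation between tissues was 0.991 for the first and 0.938 for the second.

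Uqcr10, a small subunit of the cytochrome bc1 complex (complex III), showed 2 levels in its 2 member probe sets, with the high one in water mice alone. In BAT the score of 1434340_at was 7.14, 7.15, 7.13, 7.15 and 7.16 in CAAM mice 2, 4, 5, 6 and 7, and in water mice it was 7.45, 7.50 and 7.46 in mice 1, 3 and 4 and 7.14 to 7.15 in the other 4. In liver mice 1, 3 and 4 of the water group scored 7.06 to 7.07 and the other 9 mice 6.92 to 6.94. In WAT the same 3 scored 6.186 to 6.193 and the others 6.137 to 6.145. All 5 CAAM mice thus shared the low level with 4 water mice. The second probe set of the gene, 1434341_x_at, split the mice in the same way, at 8.211 to 8.215 and 8.184 to 8.187 in BAT. The remaining one, 1424364_a_at, did not: its lowest correlation between tissues was -0.16 and its mouse means correlated with those of 1434340_at at -0.25. It was the probe set of far higher score, with means of 12.3, 11.6 and 13.5 in liver, WAT and BAT. The means of 1434340_at were 6.96, 6.15 and 7.23.

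**Figure D1:**
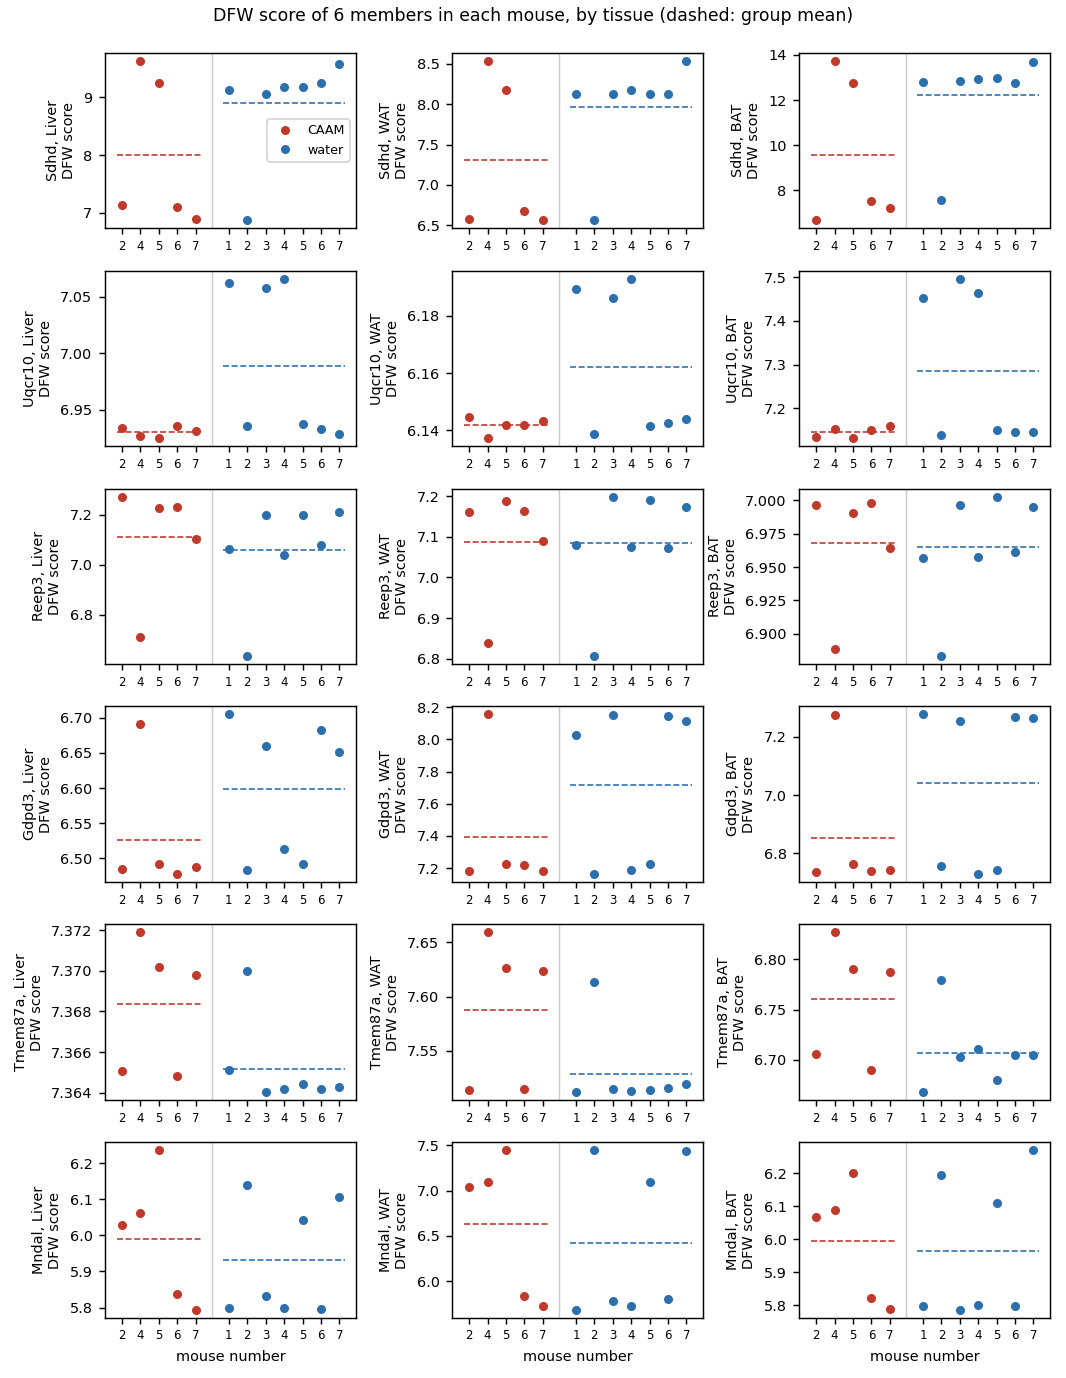
DFW score (vertical axes, each with its own range) of Sdhd, Uqcr10, Reep3, Gdpd3, Tmem87a and Mndal in each of the 12 mice (horizontal axes, mouse number) in liver, WAT and BAT, with the 5 CAAM mice in red, the 7 water mice in blue and group means as dashed lines. The same mice are high or low in all 3 columns, such as the 4 low mice of Sdhd and the 3 high water mice of Uqcr10.

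Reep3, a protein that shapes the endoplasmic reticulum and keeps it off mitotic chromosomes, fell into 3 bands. In WAT 1424781_at scored 7.16, 6.84, 7.19, 7.16 and 7.09 in CAAM mice 2, 4, 5, 6 and 7, and 7.08, 6.81, 7.20, 7.07, 7.19, 7.07 and 7.17 in water mice 1 to 7. CAAM mouse 4 and water mouse 2 made the low band, CAAM mouse 7 with water mice 1, 4 and 6 the middle band, and the other 6 mice the high one. In liver the bands lay at 6.63 to 6.71, 7.04 to 7.10 and 7.20 to 7.27, and in BAT at 6.88 to 6.89, 6.957 to 6.965 and 6.990 to 7.003. The bands did not overlap in any tissue. The other member of the gene, 1424780_a_at, followed at a correlation of 0.998 over mouse means, with 7.30 to 7.38 in WAT in the same 2 low mice. Of the further Reep3 probe sets, 1424779_at correlated with 1424781_at at 0.91 and 1447452_at at 0.72. The 1424778_at probe set stood at 0.18 and 1433976_at at -0.36.

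Gdpd3, a glycerophosphodiester phosphodiesterase that releases lysophosphatidic acid from lysophospholipids, had 2 clean levels. In WAT 1449526_a_at scored 7.18, 8.16, 7.23, 7.22 and 7.18 in CAAM mice 2, 4, 5, 6 and 7, and 8.03, 7.16, 8.15, 7.19, 7.23, 8.15 and 8.11 in water mice 1 to 7. CAAM mouse 4 and water mice 1, 3, 6 and 7 were high, and the 2 levels were 0.804 of the whole range apart in WAT. In BAT the high mice scored 7.26 to 7.28 and the low ones 6.73 to 6.76, and in liver 6.65 to 6.70 and 6.48 to 6.51.

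A pair of genes on chromosome 2 moved against each other. Tmem87a encodes a membrane protein of the Golgi, and Haus2 a subunit of augmin, which branches microtubules in the spindle. In WAT Tmem87a (1424454_at) scored 7.51, 7.66, 7.63, 7.52 and 7.62 in CAAM mice 2, 4, 5, 6 and 7, and in water mice 7.61 in mouse 2 and 7.51 to 7.52 in the other 6. Haus2 (1430577_at) scored 7.3060, 7.3015, 7.3043, 7.3061 and 7.3036 in the same CAAM mice, and in water mice 7.3040 in mouse 2 and 7.3060 to 7.3068 in the other 6. Each gene had 3 bands that were separate in every tissue, and they held the same mice in reverse: CAAM mouse 4 alone at one end, CAAM mice 5 and 7 with water mouse 2 in the middle, and the other 8 mice at the opposite end. CAAM mouse 4 was thus the highest of all for Tmem87a and the lowest of all for Haus2. The mouse means correlated at -0.95 for 1430577_at and at -0.92 for the second Haus2 member, 1454112_a_at. In the assembly GRCm38.p6 there are 5 protein-coding genes between Haus2 and Tmem87a. The 2 remaining Haus2 probe sets, 1432511_s_at and 1439032_at, followed the member at 0.91 and 0.92, with lowest correlations between tissues of 0.64 and 0.66.

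Glo1, glyoxalase 1, which removes the reactive sugar product methylglyoxal, was high in 1 mouse of each group. In WAT 1424109_a_at scored 10.2705, 10.2603, 10.2602, 10.2580 and 10.2604 in CAAM mice 2, 4, 5, 6 and 7, and in water mice 10.2767 in mouse 7 and 10.2576 to 10.2606 in the other 6. CAAM mouse 2 and water mouse 7 stood above the other 10 mice in liver and BAT as well, and also for the second member, 1424108_at. A probe set with no gene symbol, 1458719_at, had the highest lowest correlation of all members (0.992) and picked the same mice. In WAT it scored 6.59, 6.45, 6.44, 6.43 and 6.44 in CAAM mice 2, 4, 5, 6 and 7, and in water mice 6.66 in mouse 7 and 6.43 to 6.45 in the other 6. It correlated with the Glo1 members at 0.99 over mouse means. Without these 2 mice the lowest correlation between tissues was 0.079 for 1458719_at and -0.25 and -0.084 for the Glo1 members. The last 2 Glo1 probe sets on the array lay just under the threshold or lower, at 0.898 (1436070_at) and 0.822 (1451240_a_at), and followed 1424109_a_at at 0.99 and 0.97.

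**Figure D2:**
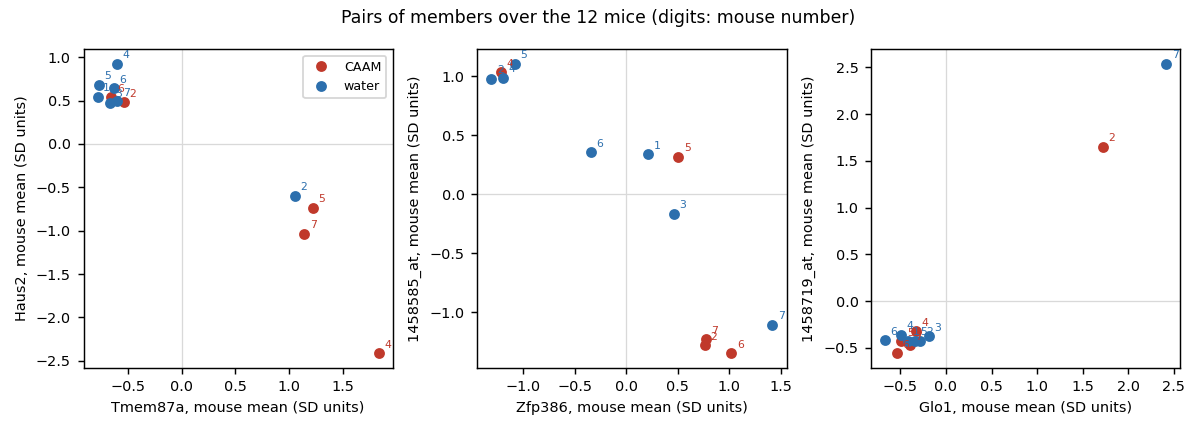
Mouse means in SD units of 3 pairs of members, each point 1 mouse with its number, red for CAAM and blue for water. Haus2 falls as Tmem87a rises, with CAAM mouse 4 at the end, the unnamed 1458585_at runs against Zfp386, and 1458719_at is high in the same 2 mice as Glo1.

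Promoters are printed for Sdhd and Uqcr10, the respiratory chain genes whose member probe sets had clear levels. They are also printed for Haus2 and Tmem87a, which moved against each other, and for Glo1, whose 2 high mice an unnamed probe set shared. The 250 bases before the annotated start are printed 5′ to 3′ on the strand of the gene, from RefSeq on GRCm38.p6: chr9:50603850-50604099 (minus strand) for Sdhd, chr11:4704345-4704594 (minus) for Uqcr10, chr2:120609132-120609381 (plus, the first of 2 starts) for Haus2, chr2:120404117-120404366 (minus) for Tmem87a and chr17:30612660-30612909 (minus) for Glo1. Capitals mark matches, on either strand, to the letters CCAAT (the CCAAT box), to GGGCGG (the GC box) and to CCGGAA (the core of ETS factor sites).
Sdhd: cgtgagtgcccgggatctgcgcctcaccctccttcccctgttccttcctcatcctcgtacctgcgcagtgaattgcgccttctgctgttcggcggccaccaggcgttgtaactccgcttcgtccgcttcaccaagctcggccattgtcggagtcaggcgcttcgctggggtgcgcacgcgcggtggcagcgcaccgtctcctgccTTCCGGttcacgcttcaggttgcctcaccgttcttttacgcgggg
Uqcr10: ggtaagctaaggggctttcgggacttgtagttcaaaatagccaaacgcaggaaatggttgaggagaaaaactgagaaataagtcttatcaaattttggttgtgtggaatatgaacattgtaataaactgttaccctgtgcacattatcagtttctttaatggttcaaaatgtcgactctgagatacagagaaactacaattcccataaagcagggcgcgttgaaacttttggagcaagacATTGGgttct
Haus2: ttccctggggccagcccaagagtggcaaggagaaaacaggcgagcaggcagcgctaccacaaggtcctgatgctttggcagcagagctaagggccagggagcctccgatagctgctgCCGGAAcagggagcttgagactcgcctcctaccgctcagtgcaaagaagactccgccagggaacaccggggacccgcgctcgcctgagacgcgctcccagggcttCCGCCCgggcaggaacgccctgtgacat
Tmem87a: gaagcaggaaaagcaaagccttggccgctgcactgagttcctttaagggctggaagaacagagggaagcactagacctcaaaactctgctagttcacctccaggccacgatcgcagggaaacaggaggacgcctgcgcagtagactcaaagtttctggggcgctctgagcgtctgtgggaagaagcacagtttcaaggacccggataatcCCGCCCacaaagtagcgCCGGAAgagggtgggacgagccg
Glo1: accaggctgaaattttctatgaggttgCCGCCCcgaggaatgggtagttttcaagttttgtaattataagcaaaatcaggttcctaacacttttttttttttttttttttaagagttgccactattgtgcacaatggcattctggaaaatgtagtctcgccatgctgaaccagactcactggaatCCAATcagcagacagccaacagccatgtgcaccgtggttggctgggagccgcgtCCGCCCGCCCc
Sdhd held 1 ETS match, Uqcr10 1 CCAAT match, Haus2 and Tmem87a 1 GC box and 1 ETS match each, and Glo1 1 CCAAT match and 3 GC boxes, of which the last 2 overlap. CCAAT was found in 13 of the 32 member genes with a promoter entry (40.6%) and in 33.8% of all 32851 promoters of this length. The GC box was found in 18 of the 32 (56.25%) and in 32.7% of all, and the ETS letters in 11 (34.4%) and in 12.03%. Each member gene was counted at 1 start, whereas all promoters include genes with several starts. The shares are thus unlike measures and were not tested. A match is a description of the letters only.

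Another pair ran in opposite directions. Zfp386, a zinc finger protein, was low in CAAM mouse 4 and in water mice 2, 4 and 5, at 8.315 to 8.319 in WAT beside 8.324 to 8.341 in the rest. The unnamed 1458585_at scored 6.23, 6.33, 6.298, 6.22 and 6.22 in WAT in CAAM mice 2, 4, 5, 6 and 7, and 6.295, 6.32, 6.28, 6.32, 6.33, 6.302 and 6.23 in water mice 1 to 7. It was highest in exactly the 4 mice in which Zfp386 was low, lowest in CAAM mice 2, 6 and 7 and water mouse 7, and lay between in the other 4. Their mouse means correlated at -0.91. The unnamed 1436240_at was likewise in 3 bands. In BAT it scored 6.49, 6.41, 6.198, 6.48 and 6.21 in CAAM mice 2, 4, 5, 6 and 7, and 6.21, 6.40, 6.39, 6.38, 6.46, 6.21 and 6.39 in water mice 1 to 7. CAAM mice 5 and 7 with water mice 1 and 6 were low and CAAM mice 2 and 6 with water mouse 5 high, and the groups overlapped throughout.

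Genes of immune defence were among the members. Mndal, a DNA-binding protein of the interferon-inducible HIN-200 family, scored 7.04, 7.10, 7.45, 5.84 and 5.73 in WAT (1426906_at) in CAAM mice 2, 4, 5, 6 and 7, and 5.68, 7.44, 5.78, 5.72, 7.09, 5.81 and 7.44 in water mice 1 to 7. It was low in 6 mice (2 CAAM and 4 water), intermediate in 3 (2 CAAM and 1 water) and high in 3 (1 CAAM and 2 water), and the bands were separate in liver and BAT too. The other Mndal member, 1452231_x_at, divided the mice into the same bands. H2-D1, a heavy chain of MHC class I, and 1451593_at, annotated to H2-Q5 and H2-K1, were both highest in CAAM mouse 7 and water mouse 6 and correlated at 0.96 over mouse means. In WAT 1451593_at scored 7.47, 7.70, 7.48, 7.46 and 7.81 in CAAM mice 2, 4, 5, 6 and 7, and 7.72 and 7.77 in water mice 2 and 6 with 7.46 to 7.47 in the other 5. Trim12c, a TRIM family protein, stood apart in 1 mouse, with 5.81 in water mouse 1 in WAT and 6.04 at most elsewhere. Sequences of the HIN-200 and MHC genes are shared between near copies, so which copy was read by these probes is uncertain. Of the 53 members, 5 ended in _x_at, the manufacturer's mark for probes that also match other sequences (9.43%, against 5.42% of all probe sets).

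Mitochondrial and redox genes gave 3 more members. Ndufb8, an accessory subunit of complex I, scored 6.716, 6.738, 6.714, 6.738 and 6.751 in BAT in CAAM mice 2, 4, 5, 6 and 7, and in water mice 6.736 in mouse 2 and 6.713 to 6.716 in the other 6. Its bands were separate in every tissue, with CAAM mouse 7 alone at the top. These are scores of the member 1458404_at. The gene's other probe set, 1448198_a_at, had higher means of 12.2, 12.3 and 13.6 in liver, WAT and BAT. Its lowest correlation between tissues was -0.34, and its mouse means correlated with those of the member at 0.50. Timmdc1, an assembly factor of complex I, was low in CAAM mouse 2 and in water mice 3, 6 and 7, intermediate in the other 4 CAAM mice and water mouse 2, and high in water mice 1, 4 and 5. Prdx2, a peroxidase of the peroxiredoxin family, scored 7.029, 7.040, 7.027, 7.045 and 7.028 in BAT in CAAM mice 2, 4, 5, 6 and 7, and in water mice 7.029 in mouse 1 and 7.038 to 7.041 in the other 6. Water mouse 1 thus lay with 3 CAAM mice below the rest, and CAAM mouse 6 above. The other Prdx2 probe set, 1418506_a_at, had higher means of 11.4, 11.5 and 12.1 in liver, WAT and BAT. Its mouse means correlated with those of the member, 1430979_a_at, at -0.71.

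Most members had such levels rather than a graded spread. When the widest gap between neighbouring mouse means took at least 0.5 of their range, a probe set was counted as two-level. This held for 30 of the 53 members (56.6%), with 20 gene symbols among them, and for 2.19% of all probe sets. The 2 sides were separate in every tissue for all 30, and the widest gap fell at the same place in all 3 tissues for 29. The smaller side held 1 mouse in 5 members, 2 in 6, 3 in 6, 4 in 6, 5 in 5 and 6 in 2. Both treatments were on both sides in 22 of the 30. By a rule set after these values were seen, 3 bands were counted where the 2 widest gaps each took at least 0.2 of the range and the bands were separate in the same mice in every tissue. This held for 29 members with 21 gene symbols (54.7%), 15 of them with at least 2 mice in every band, and for 0.229% of all probe sets. Likeness between tissues chose the members, so both shares describe them and are no test.

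**Figure D3:**
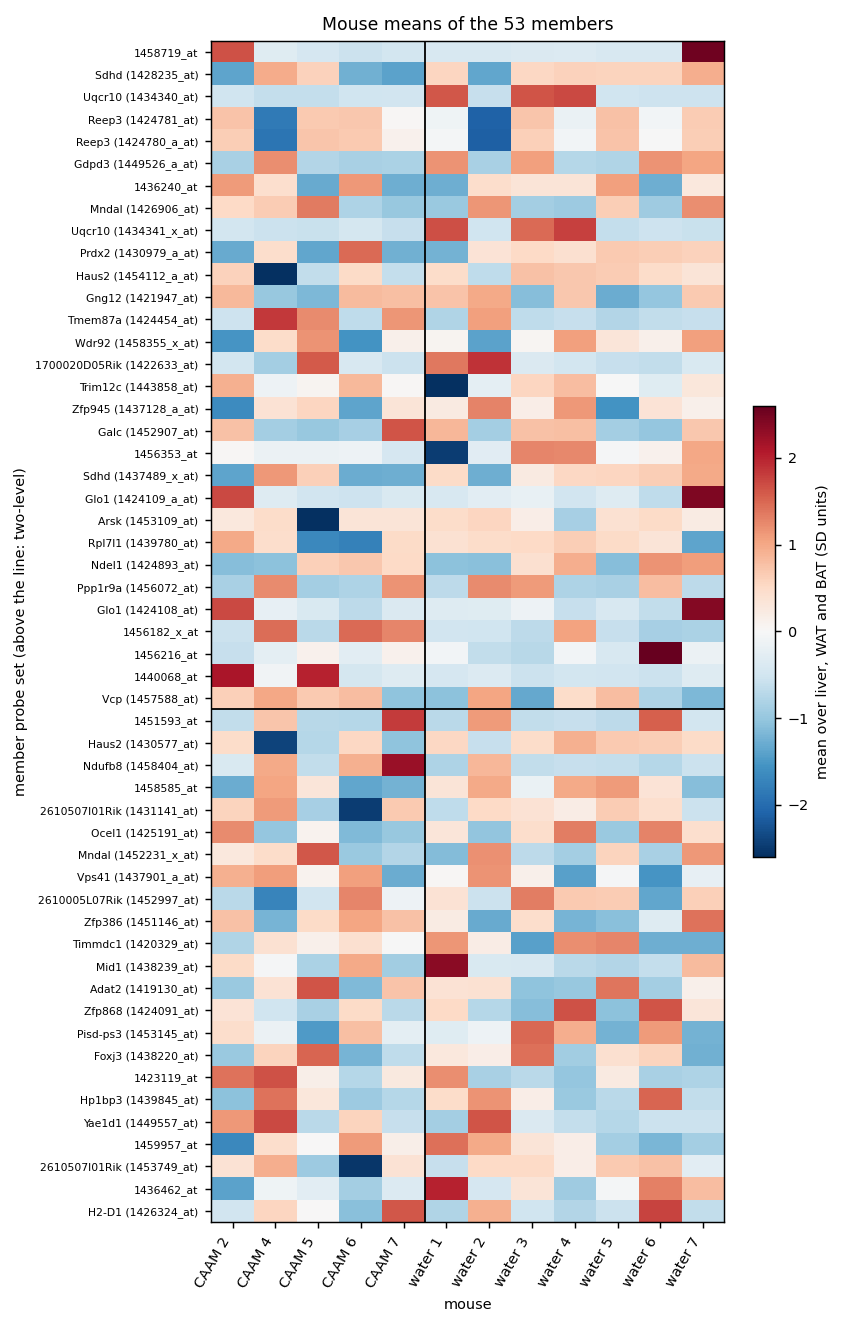
Mouse means of the 53 members (rows, two-level members above the horizontal line, ordered by their lowest correlation) in the 12 mice (columns, CAAM left of the vertical line and water right of it), coloured in SD units from blue (low) to red (high). No column is high or low throughout, and most rows of different genes split the mice at different places, while Trim12c, 1456353_at, Mid1 and 1436462_at each set water mouse 1 apart.

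Most pairs of members did not share a split. Taken at the widest gap between mouse means, 11 of the 1378 pairs parted the same mice in the same direction and 4 in opposite directions. Of the 11, 7 were probe sets of the same gene and 2 joined 1458719_at to Glo1, and the others were Trim12c with 1456353_at, both low in water mouse 1, and Mid1 with 1436462_at, both high in it. The 4 opposite pairs ran between these. Over all pairs the absolute correlation of mouse means had a median of 0.235, and 13 pairs passed 0.9, of which 7 were probe sets of the same gene. The others were the Haus2 and Tmem87a pairs, the pairs of 1458719_at with Glo1, 1451593_at with H2-D1, and 1458585_at with Zfp386. The 35 genes lay on 15 chromosomes, with 1 (Pisd-ps3) unplaced in the table, and no chromosome held more than 4. Vps41 and Yae1d1 on chromosome 13 have 1 protein-coding gene between them and correlated at 0.75.

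The remaining members are given by role. Among genes of vesicles and lysosomes, Galc, the lysosomal galactosylceramidase, was low in 6 mice (3 CAAM and 3 water) at 6.20 to 6.21 in WAT and 6.31 to 6.37 in the others, and Vps41, of the HOPS complex that tethers membranes to lysosomes, had bands at 7.30, 7.32 and 7.33 in WAT. Arsk, a lysosomal sulfatase, stood apart in CAAM mouse 5 alone, at 6.710 in WAT, with water mouse 4 at 6.722 and the other 10 mice at 6.726 to 6.730. Vcp, the ATPase that pulls ubiquitinated proteins out of complexes, was high in 4 CAAM and 3 water mice over a range of only 0.00252 in WAT. The other Vcp probe set, 1423030_at, averaged 11.7 in liver, where the member scored 6.79. It correlated with the member at -0.10 over mouse means.

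Of the cytoskeletal and signalling genes, Ndel1, a regulator of dynein, was high in 3 CAAM and 4 water mice, with a whole range of 0.0740 in BAT. Ppp1r9a, the actin-binding neurabin, was high in 2 CAAM and 3 water mice, with a range of 0.0223 in WAT. Gng12, a G protein gamma subunit, was high in 3 CAAM and 4 water mice, with a range of 0.00759 in WAT. Mid1, a microtubule-bound ubiquitin ligase and the only named member on the X chromosome, was highest in water mouse 1 alone. Wdr92, a WD repeat protein, was low in CAAM mice 2 and 6 and water mouse 2, and Ocel1, a protein with an occludin-like domain, had 3 bands of 5, 4 and 3 mice. These splits each took mice of both groups, apart from that of Mid1.

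Nuclear and RNA genes made up the rest of the named members. Zfp945, a zinc finger protein, was low in CAAM mice 2 and 6 and water mouse 5, at a lowest score of 6.85 in WAT and a highest of 6.99. Zfp868, of the same class, was high in water mice 4 and 6. Foxj3, a forkhead factor, was high in CAAM mouse 5 and water mouse 3, with all mice at 6.68945 to 6.6898 in WAT. Hp1bp3, a linker histone-like protein of heterochromatin, was high in CAAM mouse 4 and water mice 2 and 6. All mice scored 6.9197 to 6.9212 for it in WAT. Both of these ranges are narrower than the span of the WAT array medians. Rpl7l1, a relative of ribosomal protein L7, was low in CAAM mice 5 and 6 and water mouse 7. Adat2, a subunit of the tRNA adenosine deaminase, was high in CAAM mouse 5 and water mouse 5, and Yae1d1 in CAAM mice 2 and 4 and water mouse 2. The pseudogene Pisd-ps3 and the transcripts 1700020D05Rik, 2610005L07Rik and 2610507I01Rik (2 probe sets) completed the list. Of these, 2610507I01Rik stood low in CAAM mouse 6, 1700020D05Rik high in CAAM mouse 5 and water mice 1 and 2, and 2610005L07Rik had the largest rank agreement of all members, a lowest Spearman rho of 0.958.

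Among members without a single gene symbol, 1423119_at (Rsph3a and Rsph3b, of the radial spoke of cilia) was highest in CAAM mice 2 and 4 and water mouse 1, and 1436462_at (6 gene models) in water mouse 1. The unnamed 1456353_at was lowest in water mouse 1, 1456216_at was high in water mouse 6 alone, and 1456182_x_at was high in CAAM mice 4, 6 and 7 and water mouse 4. The last, 1459957_at, was low in CAAM mouse 2 and water mice 5, 6 and 7.

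The pattern was often confined to some of a gene's probe sets. For 10 of the 35 genes every probe set on the array was a member. The other 25 had 58 further probe sets, of which 40 were above 0 in all 3 correlations between tissues, 20 above 0.5 and 15 above 0.7, with a median lowest correlation of 0.290. In 15 genes no further probe set passed 0.5. Over mouse means 17 of the 58 followed their member above 0.9, among them 1421139_a_at of Zfp386 (0.997), 1429452_x_at of Pisd-ps3 (0.99) and 1436740_at of 2610005L07Rik (0.98). None ran against its member beyond -0.9, but both further probe sets of Zfp945 (1441792_at at -0.84 and 1437127_at at -0.74), 1455089_at of Gng12 (-0.73) and 1418506_a_at of Prdx2 (-0.71) came nearest. H2-D1 held 8 further probe sets, from -0.62 (1451934_at) to 0.92 (1451784_x_at) with the member. Some further probe sets scored higher than the member. In WAT 1435362_at of Foxj3 averaged 9.78, 1454922_at of Wdr92 8.62 and 1415751_at of Hp1bp3 10.75. Over mouse means they correlated with the member at -0.025, -0.39 and 0.89 in that order. A member's pattern is thus that of a probe set and need not be that of the gene. What sets probe sets of 1 gene apart was not tested.

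Partners of the leading genes did not reach such correlations between tissues. Of 6 measured genes of complex II, each read from its probe set of highest mean score, only Sdhd was above 0.9, and the next was Sdhc, another membrane anchor, with a lowest correlation of 0.0030 between tissues. The list had a median of -0.13, beside -0.168 for all probe sets. In complex III, 9 genes measured, Uqcrb was highest at 0.47 and the median was -0.16. Uqcr10 stood at -0.16 there, as its probe set of highest mean score is not a member. Of the REEP family Reep3 was highest (0.70 for its probe set of highest mean score, 1424778_at) and Reep5 next (0.15). That Reep3 probe set correlated with the member 1424781_at at only 0.18 over mouse means. Of the glycerophosphodiester phosphodiesterases Gdpd3 (0.98) was followed by Gpcpd1 (0.11). Tmem87a (0.95) was followed by its paralogue Tmem87b (0.21). Of 12 measured genes listed as differing between laboratory strains, only Glo1 (0.93) passed 0.9, and Ide was next at 0.24.

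The medians of the interferon, clock, MHC and glucocorticoid lists were above that of all probe sets, and no gene of theirs passed 0.9 by this measure. The lists were not tested against all probe sets. All 17 measured interferon response genes were above 0, with a median of 0.49, led by Ifit3 (0.88), Ifit1 (0.76), Gbp3 (0.75) and Xaf1 (0.69). The circadian clock list (16 genes) had a median of 0.46, with Clock (0.75), Per1 (0.70), Dbp (0.65) and Tef (0.65) in front, and 8 of its genes above 0.5. Another 5 were below 0, namely Bhlhe41 (-0.69), Bhlhe40 (-0.34), Cry2 (-0.26), Arntl (-0.21) and Cry1 (-0.20). Of 13 glucocorticoid response genes, with a median of 0.34, 11 were above 0 and 5 above 0.5, among them Per1 again, Fkbp5 (0.64), Sgk1 (0.63) and the metallothionein Mt2 (0.59). Of 11 MHC genes, with a median of 0.44, 10 were above 0 and 5 above 0.5, led by the peptide transporter Tap1 (0.78), H2-D1 (0.72), H2-Eb1 (0.67) and Psmb9 (0.65). The haemoglobin and erythrocyte list (4 genes, median 0.13, highest Bpgm at 0.25) lay lower than these. So did the immunoglobulin and B cell list (8 genes, median 0.072, highest Mzb1 at 0.23). Among the 7 cell type marker lists the highest gene was Myh4, a myosin of fast muscle, at 0.27.

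**Figure D4:**
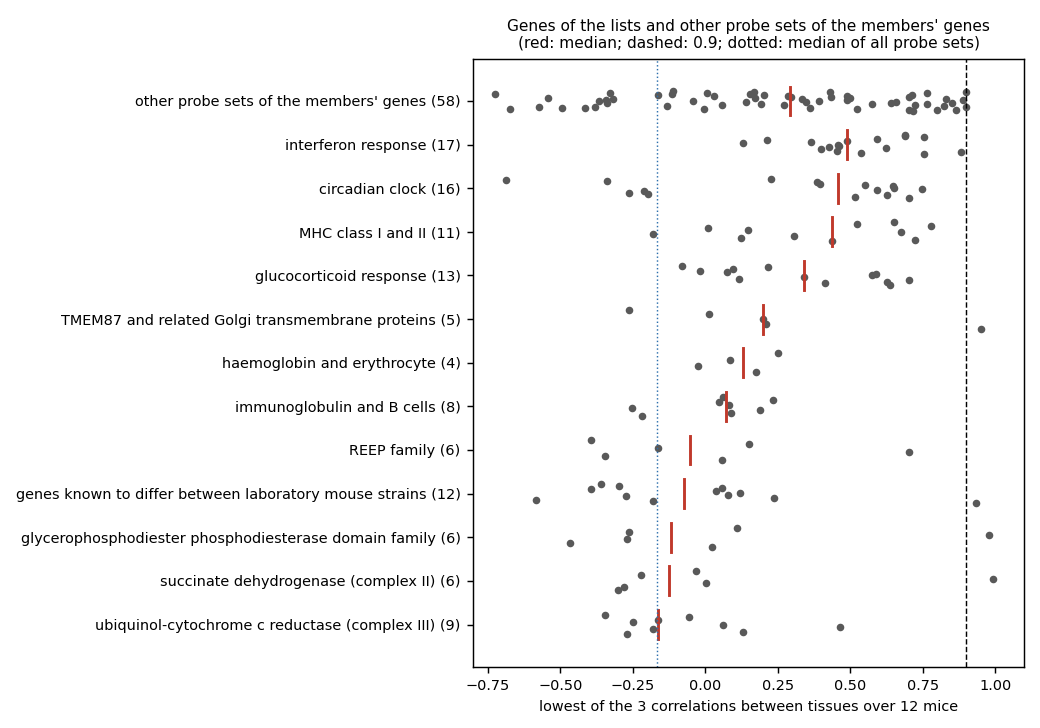
Lowest of the 3 correlations between tissues over 12 mice (horizontal axis) for each measured gene of 12 lists (rows, number of genes in brackets) and, in the top row, for the 58 other probe sets of the members' genes. Red bars are medians, the dashed line is at 0.9 and the dotted line at the median of all probe sets, -0.168, and Sdhd, Gdpd3, Tmem87a and Glo1 are the points beyond the dashed line.

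How far the members rested on single mice varied. All 3 correlations stayed above 0.9 whichever mouse was left out in 35 of 53 members, among them Sdhd (lowest 0.989, without CAAM mouse 7), Uqcr10 (0.983) and Gdpd3 (0.976). The strongest dependence was that of 1456216_at, which fell to 0.321 without water mouse 6, Arsk, to 0.560 without CAAM mouse 5, and Trim12c, to 0.758 without water mouse 1. Without the 2 mice farthest from its median 24 members stayed above 0.9, and 6 were under 0.5, namely 1458719_at, both Glo1 probe sets, Arsk, 1456216_at and 1440068_at. Within the 7 water mice alone 36 of the 53 were above 0.9, with a median lowest correlation of 0.935. The exception at the low end was 1440068_at (-0.84), which was high in CAAM mice 2 and 5 only. By Spearman's rho 4 members passed 0.9 in all 3 pairs of tissues, with a median lowest rho of 0.762.

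For the relation to treatment, CAAM was compared with water in each tissue. By rank products, the authors' test, 33 of 53 members were called in liver (background 2.68% of all probe sets), 34 in WAT (2.65%) and 37 in BAT (3.17%). In liver 14 were called higher (1.62% of all probe sets) and 24 lower (1.19%) in CAAM mice, in WAT 14 higher (0.826%) and 24 lower (1.98%), and in BAT 17 higher (1.19%) and 27 lower (2.05%). Of all members 29 were called in all 3 tissues (background 0.286%), 5 of them higher (0.0777%) and 15 lower (0.113%) throughout, and 13 were never called. Since the members were chosen for varying alike in the 3 tissues, a call in 1 tissue and a call in another are not independent. The 5 took in Tmem87a, Ndufb8, Vps41, Zfp386 and Trim12c, and the 15 took in Haus2, Uqcr10, Gdpd3, Prdx2, Ocel1, Wdr92, Zfp945 and Ndel1. In 9 members the test called the same probe set higher and lower at once in at least 1 tissue (background 0.322%), as for Reep3, Mndal and 1436240_at. The method ranks differences of scores, and nearly all members lay among the 10% of widest spread. When the differences were divided by the SD within groups, 0 members were called in liver, WAT or BAT (background 0.628%, 0.302% and 0.42%).

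**Figure D5:**
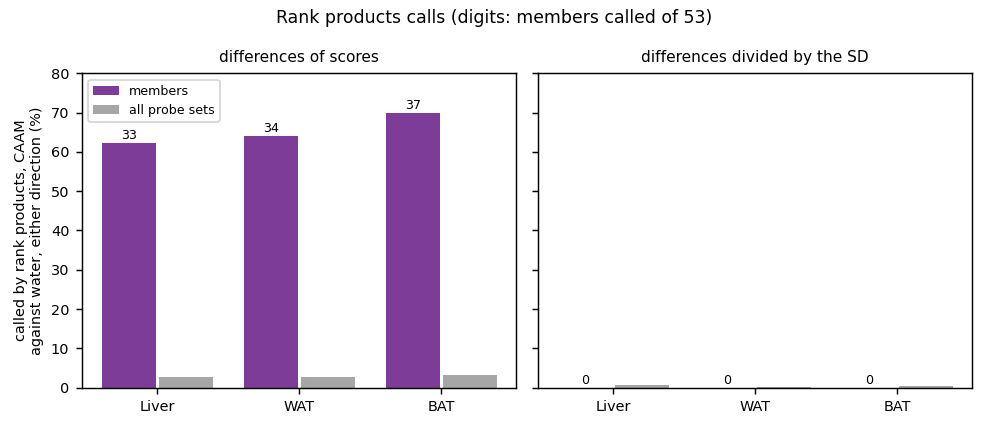
Percentage called by rank products in CAAM against water, in either direction (vertical axis), in liver, WAT and BAT, for the 53 members (purple, with the number called) and for all probe sets (grey). On the left differences of scores were ranked, with 33, 34 and 37 members called, and on the right differences divided by the SD within groups, with 0 called.

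By limma no member and no other probe set passed an adjusted p of 0.05 in any tissue. The lowest adjusted p of a member was 0.742 in liver, 0.9999 in WAT and 0.691 in BAT, and at an unadjusted p of 0.05 there were 0, 3 and 3 members (background 6.77%, 3.96% and 6.41% of all probe sets). On mouse means, 1 value per animal, 22 members were higher and 31 lower in CAAM mice, with a median difference of -0.11 SD units, beside -0.029 over all probe sets, of which 53.03% were lower. None passed limma, with a lowest adjusted p of 0.960, and 14 had an unadjusted p under 0.05 (background 4.95%). That fit gave each probe set the same standard error of 0.369, from 1 pooled spread, whereas the SD within groups had a median of 1.0002 in the members and 0.616 over all probe sets. An exact permutation test over all divisions of the 12 mice, in which each probe set keeps its own spread, gave 2 members under 0.05 (background 5.18%). In no member did the 2 groups separate (background 0.238%).

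The 5 members with the lowest limma p on mouse means show the overlap. The unnamed 1440068_at had mouse means of 2.13, -0.098, 1.998, -0.45 and -0.34 in CAAM mice 2, 4, 5, 6 and 7, and -0.55 to -0.34 with a median of -0.49 in water mice. The difference was 1.11 ± 0.37 SD units (SE, limma adjusted p = 0.960, two-sided exact permutation p = 0.00884, where the smallest possible is 0.00126), and it rested on CAAM mice 2 and 5, being 0.74 without mouse 2. Haus2 (1430577_at) had 0.48, -2.41, -0.74, 0.54 and -1.04 in the same CAAM mice and -0.60 to 0.92 with a median of 0.54 in water mice. The difference was -1.08 ± 0.37 (the same pooled SE, exact permutation p = 0.0341), with an SD of 1.22 in CAAM mice and 0.49 in water mice. None of the 5 CAAM mice lay above the water median, but CAAM mice 2 and 6 lay among the water mice, and without CAAM mouse 4 the difference was -0.64. Ndufb8 differed by 1.07 (exact permutation p = 0.0530), with CAAM mice 2 and 5 among the water mice, and by 0.67 without CAAM mouse 7. The other members of the 5 were 1436462_at, which differed by -1.03 (0.0694), and Tmem87a, which differed by 1.03 (0.0859) with CAAM mice 2 and 6 at the low level of the water mice.

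For Sdhd, Uqcr10, Gdpd3, Reep3 and Glo1 the difference between groups was within the spread between mice. Sdhd averaged -0.49 ± 1.17 SD units in CAAM mice and 0.35 ± 0.76 in water mice (SD, n = 5 and 7, exact permutation p = 0.202), with 3 of 5 CAAM and 1 of 7 water mice at the low level. Uqcr10 averaged -0.56 ± 0.062 in CAAM mice and 0.40 ± 1.17 in water mice (exact permutation p = 0.0997), with 0 of 5 CAAM and 3 of 7 water mice at the high level. Gdpd3 averaged -0.41 ± 0.90 in CAAM mice and 0.29 ± 1.015 in water mice (exact permutation p = 0.203), a difference of -0.70 that was -1.11 without CAAM mouse 4. Reep3 averaged 0.064 ± 1.11 in CAAM mice and -0.046 ± 0.997 in water mice, a difference whose sign turned when CAAM mouse 2, 5 or 6 or water mouse 2 was left out, and Glo1 averaged -0.0078 ± 0.97 in CAAM mice and 0.0056 ± 1.08 in water mice.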

How the data were processed

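Affymetrix mouse expression arrays from 5 CAAM and 7 water mice were used, 1 each for liver, WAT and BAT. A second amino acid mixture is not analysed here. The deposited values are DFW scores, which the authors computed from the scanned arrays, in R 2.7.2 by the submitters' processing notes. The tests had been planned for log2-like values, and as the scores are not such values, sizes are given in SD units. Precision is limited by the number of arrays. The probe sets, gene lists and tests were chosen with earlier results of these data known. Every member with 1 gene symbol was named, with values by mouse for 13 members and, chosen after its values were seen, Glo1, 4 probe sets on each side of the threshold, the 5 members of lowest limma p and up to 4 genes of each list. Genes were named from the platform annotation and the RefSeq gene table of GRCm38.p6, whose coordinates were not used for probe sets, as no build is given in the sources used here.

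Mice were matched between tissues by treatment and number. CAAM was compared with water by rank products over all 35 pairs of arrays with 100 permutations (20 in alternatives), called below 0.05 of estimated false positives, separately for higher and lower, by limma 3.58.1 in R 4.3.3 (two-sided, Benjamini-Hochberg over all 45037 probe sets, called at an adjusted p under 0.05) and by exact permutation of mouse means, written in python 3.11.15 with numpy 2.4.6, pandas 2.3.3 and scipy 1.17.1. Figures were drawn with matplotlib 3.10.9. The scripts were tested on simulated data. Alternatives were quantile normalization, centring on array medians, a linear scale, Spearman's rho, other thresholds, a filter on low scores, differences divided by the SD, residuals after removing group means, trend and robust priors, the mouse number as a block, and leaving out each mouse. Added with the data seen were exact permutation over all probe sets, the 3-band count, and the runs without each member's 2 farthest mice or the mice highest in epididymis or muscle markers. A mouse number in the CAAM group and the same number in the water group are different mice.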

Additional observations from a re-analysis of the deposited data

Results flagged for a closer look

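Within the CAAM or the water mice, 10 single mice of the 13 members given in full stood far from the rest of their group, out of 26 groups looked at. They were 5 different mice, with water mouse 2 counted 5 times. Chance picks about 1 in 20 groups, but the members were chosen for varying alike in every tissue, so the count cannot be read against that rate. In SD units of mouse means, CAAM mouse 4 lay apart for Reep3 at -1.85 and for Gdpd3 at 1.21, and CAAM mouse 2 for 1458719_at at 1.65. Among water mice, mouse 2 lay apart for Sdhd (-1.35), Reep3 (-2.10), Tmem87a (1.06), Haus2 (-0.60) and Ndufb8 (0.85). Mouse 7 lay apart for 1458719_at (2.54) and mouse 1 for Prdx2 (-1.23). Each of these mice lay on the side of the other group's mice that shared its level.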

How the results depend on the processing

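The 53 probe sets became 5 with Spearman's rho, 163 at a threshold of 0.8, 19 at 0.95, 25 with quantile normalization or with centring on array medians, 34 with probe sets above the array median in at least 1 tissue, 93 in the 7 water mice alone and 24 without each member's 2 farthest mice, the last chosen after seeing the data. With 1 mouse left out there were 50 to 63, without the mice highest in epididymis markers 57 and without those highest in muscle markers 73. Two-level members numbered 29 to 33 with 1 mouse left out. Of rank products calls among members, quantile normalization left 22 of 34 in WAT and 24 of 37 in BAT, and division by the SD 0 in each tissue. The filter on low scores left only 27, 29 and 29 members to test in liver, WAT and BAT. Of these 16, 14 and 19 were called. Leaving out 1 mouse gave 28 to 35 in liver, 28 to 33 in WAT and 33 to 39 in BAT. limma called 0 members under every alternative run. The difference of Reep3 on mouse means, 0.11 with all mice, turned to -0.061 without CAAM mouse 2, -0.046 without CAAM mouse 5, -0.049 without CAAM mouse 6 and -0.23 without water mouse 2, and lay between -0.23 and 0.59 over all mice left out. The other 8 members followed in this way, Sdhd, Uqcr10, Gdpd3, Haus2, Ndufb8, Tmem87a, 1436462_at and 1440068_at, kept their direction throughout, though Haus2, Ndufb8, Gdpd3 and 1440068_at moved by more than 1.5 times without CAAM mouse 4, 7, 4 and 2 in that order. The cause of these shifts was not tested.

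The mouse numbers did not pair the groups: deviations of same-numbered mice correlated at -0.20 to 0.15, and 1 of 15 CAAM arrays correlated best with its own number. With the replicate block limma called 0 members, in each tissue and on mouse means, as without it. The number of arrays and the narrow range of many scores limit how finely mice can be ordered.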
